A study of Mus musculus with 8 samples.

Results

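Smooth muscle cells contract with a set of actin- and myosin-associated proteins that differs from that of striated muscle, and 7 genes of that set were followed here through the differentiation of mouse embryonic stem cells into heart muscle cells. The genes were chosen by symbol and are Tagln, Cnn1, Cnn2, Myl9, Mylk, Smtn and Cald1. The analysed table holds 13540 genes, and 6 of the 7 are in it. Mylk, which encodes the myosin light chain kinase of smooth muscle, has no value there and was not analysed here.

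In smooth muscle, calcium-bound calmodulin activates myosin light chain kinase, which phosphorylates the regulatory light chain of myosin and starts contraction. Calponin, caldesmon and transgelin bind actin filaments, and caldesmon and calponin restrain the myosin motor. Many of these genes are targets of the transcription factor SRF and its coactivator myocardin. They are used as smooth muscle markers in the adult, but the embryonic heart also transcribes several of them for a time.

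The cells were of the mouse strain 129/Ola and were sampled on day 0 as embryonic stem cells (ESC), on day 4 as mesoderm (MES), on day 5.3 as cardiac precursors (CP) and on day 10 as cardiomyocytes (CM). Differentiation ran through embryoid bodies, which received VEGF, Activin A and BMP4 at reaggregation. The dissociated cells were later plated in medium containing VEGF, basic FGF and FGF10. Poly(A) RNA of 8 libraries, 2 per stage, was sequenced, but the table gives a single value for each stage in RPKM, the number of reads divided by gene model length and by sequencing depth. No spread between replicates can be had from it, so the differences below carry no SD, no test and no p-value. The growth protocol names no sorting of cells, and in bulk RNA more cells of a type and more RNA per cell cannot be told apart.

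The steps between low values gave depths, in units of 1000000 reads, of 75.3 for ESC, 62.0 for MES, 64.8 for CP and 88.5 for CM, and whole reads could be recovered for all 6 genes with values. The 95% intervals given below are Poisson intervals of these reads; they leave out all error but that of counting, and the labels name no molecular identifiers that would remove PCR copies. All 8 pluripotency markers examined were at 85.2 RPKM or more in ESC, and all 14 cardiomyocyte markers were at 44.3 RPKM or more in CM. These lists were written with earlier results of these data known, so the high values at the 2 ends of the series are no independent check of the stage labels.

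The start regions of 3 of the genes are shown first, because these genes were all at least 2-fold higher in CP than in MES and differ in whether the window holds a CArG box, the motif that SRF binds. The windows are those of RefSeq on build GRCm38.p6, from 250 bases before to 50 bases after the annotated start, 5′ to 3′ on the gene's own strand, with a CArG box in capitals. Cnn2 lies at chr10:79988350-79988649 (plus strand), Myl9 at chr2:156775214-156775513 (plus strand) and Cnn1 at chr9:22099003-22099302 (plus strand).
Cnn2: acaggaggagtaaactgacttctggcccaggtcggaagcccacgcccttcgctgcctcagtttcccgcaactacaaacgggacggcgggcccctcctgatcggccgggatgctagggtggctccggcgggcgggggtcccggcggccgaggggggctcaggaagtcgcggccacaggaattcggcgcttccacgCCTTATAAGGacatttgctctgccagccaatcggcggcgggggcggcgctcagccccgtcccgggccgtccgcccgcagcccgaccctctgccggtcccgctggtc
Myl9: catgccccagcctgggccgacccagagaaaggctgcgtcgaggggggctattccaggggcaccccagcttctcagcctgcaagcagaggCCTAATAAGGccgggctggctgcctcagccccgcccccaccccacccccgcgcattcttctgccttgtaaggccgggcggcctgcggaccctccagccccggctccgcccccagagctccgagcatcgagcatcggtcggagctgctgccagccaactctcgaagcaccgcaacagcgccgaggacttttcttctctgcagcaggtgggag
Cnn1: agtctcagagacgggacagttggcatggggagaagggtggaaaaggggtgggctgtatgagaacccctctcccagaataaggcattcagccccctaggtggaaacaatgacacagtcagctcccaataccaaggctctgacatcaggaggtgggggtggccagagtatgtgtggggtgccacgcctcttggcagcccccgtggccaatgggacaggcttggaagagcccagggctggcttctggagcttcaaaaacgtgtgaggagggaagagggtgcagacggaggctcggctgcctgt

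The box of Cnn2, CCTTATAAGG, lies at positions -56 to -47 from the annotated start, and that of Myl9, CCTAATAAGG, at -161 to -152. The Cnn1 window holds no such exact match, nor do the windows of Smtn and Cald1, of which Cald1 has 2. Windows were on file for 5 of the 6 genes with values, not for Tagln. An exact CArG box is thus in the windows of 2 of these 5 genes, while it occurs in 1.67% of the 9240 genes of the table that have a window. Of the lists taken up below, it is in 0 of 8 smooth muscle markers with a window, Cnn1 and Smtn among them. It is in 2 of 19 other contractile genes, 2 of 14 cardiomyocyte markers, 2 of 9 SRF and myocardin family regulators and 1 of 8 paralogs of the 6 genes. These lists share genes. Every smooth muscle marker but Tagln, Cnn1 and Smtn is also among the other contractile genes. The MCAT motif CATTCC, searched on both strands and known as a binding site of TEAD factors, is in the Smtn window and in 1 Cald1 window, against 14.7% of those 9240 genes. These matches describe the letters of short windows only, and say nothing of sites outside them.

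Tagln encodes transgelin, also called SM22-alpha, an actin-bundling protein and an early marker of smooth muscle. Tagln (ENSMUSG00000032085) stood at 134 RPKM in ESC, 2.26 RPKM in MES, 43.2 RPKM in CP and 408 RPKM in CM. The values rested on 13783, 191, 3807 and 49172 reads in these stages. Its course was a deep trough at the mesoderm stage between a high value in stem cells and a still higher one in cardiomyocytes. The 95% interval of the MES value was 1.96 to 2.61 RPKM. Tagln ranked 267th of all 13540 genes by RPKM in ESC, 9675th in MES, 1060th in CP and 55th in CM. Of the 32-base words in its longest GENCODE M21 transcript, 53.5% also occur, on either strand, in transcripts of other genes, most of them (48.6%) in Gm48529. The labels do not say that strand was kept, so reads of Tagln and Gm48529 cannot be told apart in the shared parts.

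Myl9 encodes the regulatory myosin light chain of smooth muscle, the protein that the kinase phosphorylates. Myl9 (ENSMUSG00000067818) stood at 32.9 RPKM in ESC, 3.61 RPKM in MES, 139 RPKM in CP and 975 RPKM in CM. These values rested on 2879, 260, 10427 and 100273 reads. It shared the MES trough of Tagln, but unlike Tagln it was higher in CP than in ESC. In CM only 12 genes of the table had a higher RPKM value, since Myl9 ranked 13th there after rank 1809 in ESC, 8573 in MES and 186 in CP. Its level in CM was 269.9 times that in MES, the widest range among the 6 genes.

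Cnn1 encodes calponin 1, the calponin of differentiated smooth muscle, and Cnn2 encodes calponin 2, which is also found in non-muscle cells. Cnn1 (ENSMUSG00000001349) stood at 7.38 RPKM in ESC, 2.32 RPKM in MES, 21.8 RPKM in CP and 73.4 RPKM in CM, on 1316, 340, 3337 and 15395 reads. Cnn2 (ENSMUSG00000004665) stood at 68.4 RPKM in ESC, 37.8 RPKM in MES, 159.8 RPKM in CP and 125.5 RPKM in CM, on 12677, 5766, 25461 and 27339 reads. Both were lowest in MES, but Cnn2 was highest in CP and Cnn1 in CM. The highest stage was 31.7 times the lowest for Cnn1 and 4.22 times for Cnn2.

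Smtn encodes smoothelin, a protein of contractile smooth muscle that binds actin filaments, and Cald1 encodes caldesmon, whose larger form marks smooth muscle and whose smaller form occurs in most cells. Smtn (ENSMUSG00000020439) stood at 12.7 RPKM in ESC, 13.1 RPKM in MES, 26.4 RPKM in CP and 23.3 RPKM in CM, on 3518, 2971, 6266 and 7559 reads. Cald1 (ENSMUSG00000029761) stood at 17.7 RPKM in ESC, 18.6 RPKM in MES, 20.7 RPKM in CP and 30.2 RPKM in CM, on 10241, 8852, 10310 and 20568 reads. Neither gene had the trough in MES. For Smtn the MES value was 1.03 times the ESC value, with a 95% counting interval of 0.978 to 1.08 that includes no difference. With median-ratio size factors both genes were slightly lower in MES than in ESC, and with quantile normalization Smtn was, so their order in these stages is not settled. The longest Smtn transcript shares 15.8% of its 32-base words, matched on either strand, with the gene Gm11946. Values are per gene, so the forms of caldesmon and smoothelin were not separated.

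**Figure D1:**
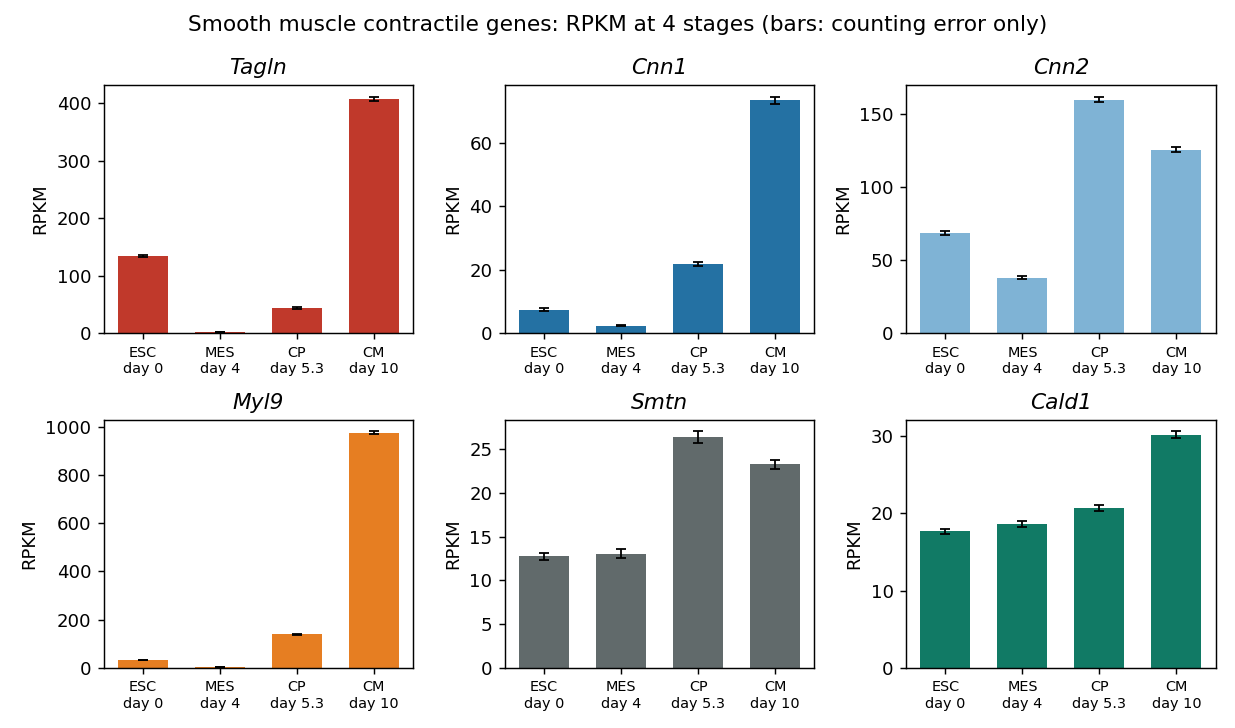
RPKM of 6 smooth muscle contractile genes (vertical axis of each panel, linear from 0) at the 4 stages ESC, MES, CP and CM (horizontal axis); error bars are 95% Poisson intervals of the recovered reads and show counting error only. Tagln, Cnn1, Cnn2 and Myl9 are lowest in MES, Smtn and Cald1 are nearly level between ESC and MES, and the scales differ, with a top of 975 RPKM for Myl9 and 30.2 RPKM for Cald1.

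The order of the genes changed with the stage. RPKM values are per length of gene model and can be set side by side within a stage, as far as that length fits the transcripts made. For Cald1 the recovered model has 7690 bases, while its longest GENCODE M21 transcript holds 4746 different 32-base words. A model longer than the transcript lowers RPKM, so the places of Cald1 below are uncertain. In ESC Tagln was highest and Cnn1 lowest, with 18.2 times between them. In MES Cnn2 was highest and Tagln lowest, with 16.7 times between them. In CP Cnn2 was highest and Cald1 lowest, at 7.72 times, and in CM Myl9 was highest and Smtn lowest, at 41.9 times. Most of these gaps exceed counting error, but in CP the Cald1 interval of 20.3 to 21.1 RPKM overlaps that of Cnn1, which reaches up to 22.5 RPKM around a value of 21.8, and in MES the Cnn1 interval of 2.08 to 2.58 RPKM overlaps that of Tagln. Summed over the 6 genes, the level was 273.5 RPKM in ESC, 77.7 RPKM in MES, 410.3 RPKM in CP and 1635 RPKM in CM.

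MES cells were set against ESC for the formation of mesoderm, with Tagln and Myl9 far lower in MES, Cnn1 and Cnn2 lower by less, and Smtn and Cald1 nearly level. As log2(RPKM + 1), a scale that shrinks the differences of low values, 3 of the 6 genes were lower by 2-fold or more in MES and 0 were higher, while 11.2% of all 13540 genes were lower and 11.1% higher by this limit. Tagln was at 2.26 RPKM in MES, against 134 RPKM in ESC, a log2 difference of -5.37. Counting Tagln itself, 23 genes of the table had a difference as negative as this or more so. Myl9 was at 3.61 RPKM in MES, against 32.9 RPKM in ESC, a log2 difference of -2.88, and Cnn1 differed by -1.34. Cnn2 was under the 2-fold limit at -0.84, with an RPKM ratio of MES over ESC of 0.553 (95% counting interval 0.536 to 0.571). The median over the 6 genes was -1.09, against 0.05 over all genes.

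At the start of the heart lineage, all 6 genes had a higher value in CP than in MES. At least 2-fold higher were 4 of them and 0 were lower, while over all genes 8.91% were at least 2-fold higher and 3.91% lower. Myl9 was at 139 RPKM in CP, against 3.61 RPKM in MES, a log2 difference of 4.92. Counting Myl9 itself, 32 genes of the table had a difference at least as large. Tagln differed by 3.76, at 19.1 times its MES value in RPKM (95% counting interval 16.5 to 22.2). Cnn1 differed by 2.78, at 21.8 RPKM in CP and 2.32 RPKM in MES. Cnn2 differed by 2.05, at 159.8 RPKM in CP and 37.8 RPKM in MES. Thus both Cnn1 and Cnn2 were higher, and Cnn1, the one of smooth muscle, by more. Smtn lay at the limit, with a log2 difference of 0.96 and an RPKM ratio of 2.02 (95% counting interval 1.93 to 2.11), and it passed 2-fold with a pseudocount of 0.1, with stages scaled to one sum and with quantile normalization. Cald1 differed by 0.15. The median over the 6 genes was 2.41, against -0.03 over all genes.

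Between precursors and cardiomyocytes, Tagln, Myl9 and Cnn1 had still higher values in CM than in CP, and Cnn2 and Smtn did not. At least 2-fold higher in CM were 3 of the 6 genes and 0 were lower, against 11.3% higher and 12.8% lower over all genes. Tagln was at 408 RPKM in CM, against 43.2 RPKM in CP, a log2 difference of 3.21. Myl9 was at 975 RPKM in CM, against 139 RPKM in CP, a log2 difference of 2.81. Cnn1 was at 73.4 RPKM in CM, against 21.8 RPKM in CP, a log2 difference of 1.71. These 3 genes had their highest value of the series in CM. Cald1 differed by 0.52, at 30.2 RPKM in CM and 20.7 RPKM in CP. Cnn2 was at 0.786 times its CP value (95% counting interval 0.772 to 0.799) and Smtn at 0.883 times (0.854 to 0.913). The median was 1.12 over the 6 genes and -0.15 over all genes.

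Set against the stem cells at the start of the series, 3 of the 6 genes were higher in CM by 2-fold or more and 0 were lower, against 22.2% higher and 23.4% lower over all genes. Myl9 had 29.6 times its ESC value in RPKM and Cnn1 9.96 times. Tagln had 3.04 times, since its ESC value was already high. Cnn2, Smtn and Cald1 were at 1.84, 1.83 and 1.71 times their ESC values in CM. The 4 comparisons share stage values and are therefore not independent of each other.

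**Figure D2:**
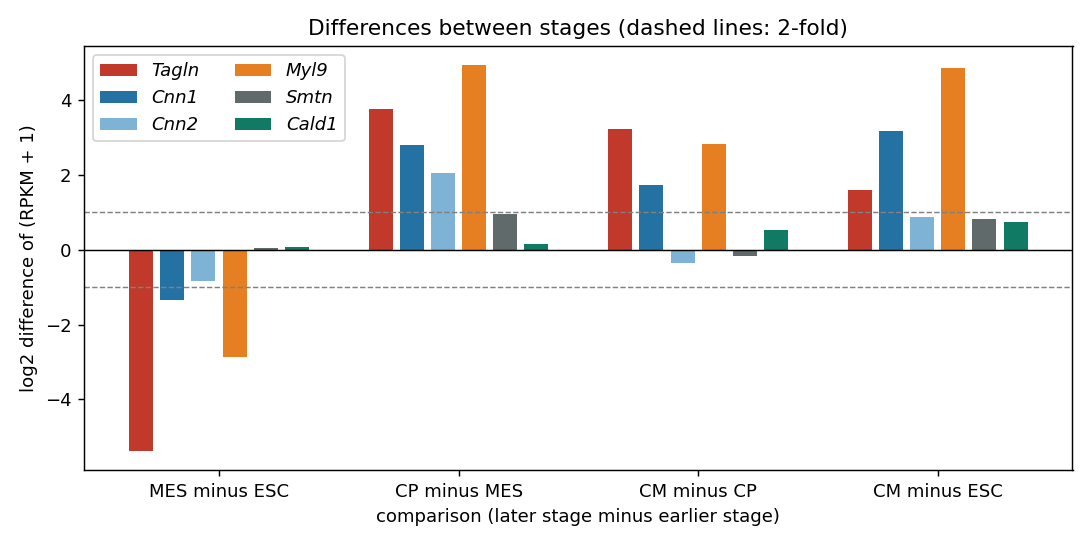
Difference in log2(RPKM + 1) between stages (vertical axis) for the 6 genes (colours) in 4 comparisons of a later with an earlier stage (horizontal axis); dashed lines mark 2-fold, and there are no error bars because the table holds 1 value per stage. Tagln, Myl9 and Cnn1 lie below the lower line in MES minus ESC and above the upper line in the other 3 comparisons, and Cald1 stays between the lines in all 4.

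Within the sum of the calponins, that of the transgelins and that of Myl9 with Myl12b, the smooth muscle member made up a larger part in CM than at any earlier stage. The calponin family also has Cnn3, the acidic calponin of non-muscle cells, which stood at 128 RPKM in ESC, 136 RPKM in MES, 111 RPKM in CP and 61.8 RPKM in CM. Cnn1 made up 3.62% of the summed RPKM of the 3 calponins in ESC, 1.32% of it in MES, 7.44% in CP and then 28.2% in CM. Cnn2 made up 33.6%, 21.5%, 54.6% and 48.1% over the same stages. The most abundant calponin was thus Cnn3 in ESC and MES and Cnn2 in CP and CM. The longest Cnn3 transcript shares 34.6% of its 32-base words with other genes, so its level is uncertain if shared reads were split. All family shares here also depend on model length. The recovered models of Cnn3, Tagln2, Myl12b and Tagln have 1754, 2082, 1711 and 1361 bases. Their longest M21 transcripts hold 2183, 1547, 2112 and 1564 such words, so these shares are uncertain. For Cnn1, Cnn2 and Myl9 the 2 numbers lie nearer each other.

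Of the transgelins, Tagln2 is found in many non-muscle cells and Tagln3 in neurons. Tagln2 stood at 43.5 RPKM in ESC, 19.8 RPKM in MES, 40.1 RPKM in CP and 76.8 RPKM in CM, while Tagln3 peaked in CP and was lowest in CM, at 0.729 RPKM. Tagln made up 73.8% of the transgelin sum in ESC, 9.58% of it in MES, 48.8% in CP and then 84.0% in CM. All 3 transgelin genes were lower in MES than in ESC, with Tagln2 at 19.8 RPKM in MES against 43.5 RPKM in ESC. Among the regulatory light chains, Myl12b, the non-muscle relative of Myl9, stood at 42.8 RPKM in ESC, 20.3 RPKM in MES, 23.7 RPKM in CP and 13.9 RPKM in CM. Myl9 made up 43.4% of the sum of Myl9 and Myl12b in ESC, 15.1% of it in MES, 85.4% in CP and then 98.6% in CM. This sum leaves out the cardiac regulatory light chain genes Myl7 and Myl2, so these are not shares of all regulatory light chains. Myl7 stood at 4.27 RPKM in ESC, 68.1 RPKM in MES and 1196 RPKM in CP, and Myl2 at 0.0983, 0.248 and 7.03 RPKM. Myl12a was not analysed here, and of the longest Myl12b transcript 14.2% of the 32-base words also occur in it. In CM the level of Myl9 lay between those of the cardiac light chain genes, with Myl7 of the atrium at 3502 RPKM and Myl2 of the ventricle at 113 RPKM. Myl6b, an essential light chain gene, stayed between 1.21 and 3.91 RPKM. Of the smoothelin-like genes, Smtnl2 stood at 13.3 RPKM in ESC, 14.8 RPKM in MES, 54.9 RPKM in CP and 42.1 RPKM in CM, which is the order of stages of Smtn.

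**Figure D3:**
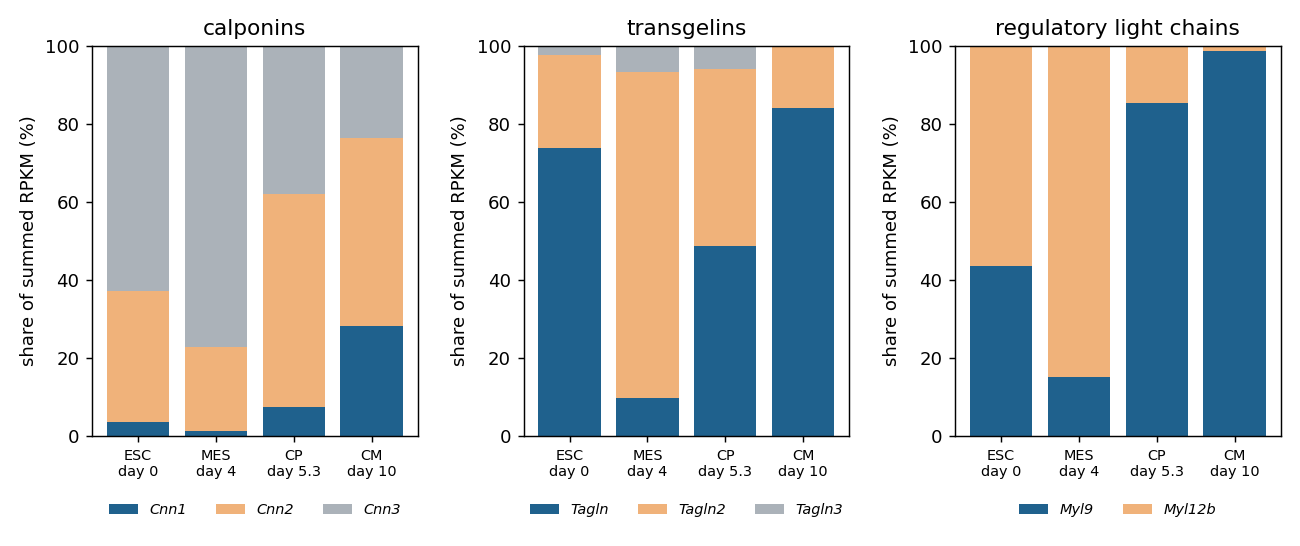
Share of each gene in the summed RPKM of its family in percent (vertical axis, 0 to 100) at the 4 stages (horizontal axis) for the calponins, the transgelins and the regulatory light chains Myl9 and Myl12b. Cnn1 reaches 28.2%, Tagln 84.0% and Myl9 98.6% in CM, against 1.32%, 9.58% and 15.1% in MES. The cardiac light chain genes Myl7 and Myl2 are not in the sum with Myl9.

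Of the other genes of the smooth muscle contractile apparatus and its cytoskeleton, 24 were listed and all 24 had values. In MES against ESC, 2 of the 24 were higher by 2-fold or more and 4 lower (median -0.27), against 11.1% higher and 11.2% lower over all genes. Acta2, smooth muscle actin, was at 1.96 RPKM in MES and 131 RPKM in ESC, a log2 difference of -5.48 beside -5.37 for Tagln. In CP against MES, 16 of the 24 were higher and 0 lower (median 1.83), against 8.91% higher and 3.91% lower over all genes. Acta2 was at 498 RPKM in CP and 1.96 RPKM in MES. Desmin (Des), the intermediate filament of muscle, was at 90.8 RPKM in CP and 2.35 RPKM in MES. Nexn, an actin-binding protein of muscle, was at 32.4 RPKM in CP and 3.25 RPKM in MES. In CM against CP, 9 were higher and 3 lower (median 0.36), against 11.3% higher and 12.8% lower over all genes. Ldb3, a Z-disc protein, was at 128 RPKM in CM and 17.9 RPKM in CP, while the tropomyosin gene Tpm4 was at 41.7 RPKM in CM and 176 RPKM in CP. Many of these genes are also part of striated muscle.

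The 12 smooth muscle markers are Tagln, Cnn1 and Smtn together with genes that are all among the 24 just counted. Their counts are therefore no separate evidence. They spanned a wide range of levels in CM, with Acta2 highest at 1944 RPKM, Tagln at 408 RPKM, Des at 273 RPKM and Cnn1 at 73.4 RPKM. Smtn stood at 23.3 RPKM in CM and Synpo2, an actin-binding protein, at 10.7 RPKM, and the other 6 were lower. Of these 6, Myh11, the smooth muscle myosin heavy chain, stood at 0.193 RPKM in ESC, 0.113 RPKM in MES, 2.95 RPKM in CP and 3.08 RPKM in CM. Actg2, the gamma actin of visceral smooth muscle, reached 5.32 RPKM in CM, and Lmod1, a smooth muscle leiomodin, 6.41 RPKM in CP. Itga8 had its highest value in MES, at 3.83 RPKM, and Aoc3 stayed at or below 1.14 RPKM. Hspb6, a small heat shock protein of muscle, stood at 5.04 RPKM in CM. Of the 12 markers, 8 had values in CP that were 2-fold or more above MES and 7 in CM above CP, with 0 lower in either case. Over all genes, 8.91% were higher and 3.91% lower in CP than in MES, and 11.3% higher and 12.8% lower in CM than in CP. Their sum was 295 RPKM in ESC, 27.8 RPKM in MES, 700.3 RPKM in CP and 2750 RPKM in CM, of which Acta2 alone gave 1944 in CM. No marker of the list was at 0 at any stage, but 6 were under 1 RPKM in ESC and 5 in MES. Actg2 rested on 2 recovered reads in MES.

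**Figure D4:**
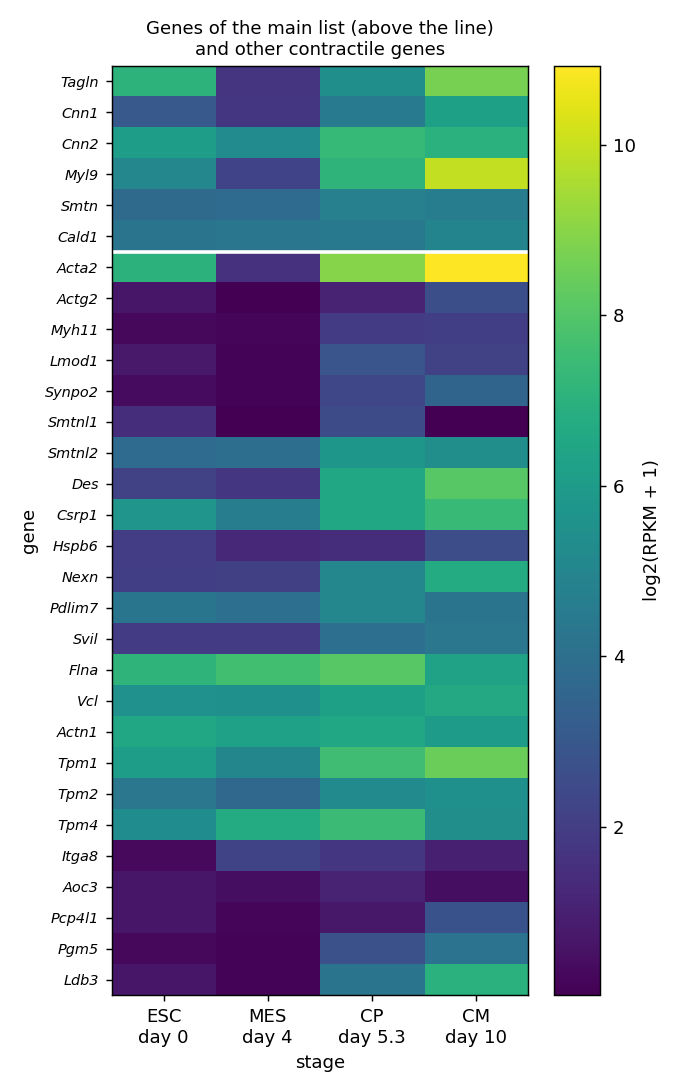
Colour gives log2(RPKM + 1) for the 6 genes (above the white line) and 24 other contractile and cytoskeletal genes (below it), 1 gene per line and 1 stage per column. Acta2 is low in MES, as Tagln and Myl9 are, and has the highest value shown in CM (1944 RPKM), while Myh11, Actg2 and Aoc3 stay at or below 5.32 RPKM at every stage.

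Markers of other cell types moved between the stages too. For the counts below, 8.91% of all genes were at least 2-fold higher and 3.91% lower in CP than in MES. In CM against CP the shares were 11.3% higher and 12.8% lower. All 14 cardiomyocyte markers had values in CP that were 2-fold or more above MES, and all 14 again in CM than in CP. Their sum was 21.6 RPKM in ESC, 86.7 RPKM in MES, 2937 RPKM in CP and 14037 RPKM in CM. None was at 0, but 8 were under 1 RPKM in ESC and 8 in MES. Of 11 fibroblast and matrix markers with values, 5 were higher and 2 lower in CP than in MES, and 5 were higher and 2 lower in CM than in CP. Their sum was 338 RPKM in ESC, 1040.5 RPKM in MES, 876 RPKM in CP and 1302 RPKM in CM, mostly from Fn1 and Vim, and Lum was listed at 0 in ESC, MES and CP. Of 7 pericyte markers with values, 4 were higher and 1 lower in CM than in CP, with sums of 39.8, 84.1, 89.7 and 362 RPKM over the 4 stages and none at 0. Of 10 endothelial markers, 8 were higher in CP than in MES and 6 lower in CM than in CP, with sums of 22.9, 65.1, 371 and 129 RPKM over the 4 stages, and Emcn was listed at 0 in ESC and MES. The part of each of these cell types in the values of the 6 genes was not tested.

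In the ESC values, which were high for Tagln and Acta2, the fibroblast collagen gene Col1a1 stood at 14.8 RPKM, against 0.615 RPKM in MES. A second collagen gene, Col3a1, was at 0.0173 RPKM in MES (9 reads) and 1.02 RPKM in ESC (642 reads), an RPKM ratio of 0.0170 with a 95% counting interval of 0.00776 to 0.0326. Its difference of -0.99 in log2(RPKM + 1) misses the 2-fold limit through the pseudocount. Of the other fibroblast and matrix markers in ESC, Fn1 stood at 159 RPKM, Vim at 136 RPKM, Fbln1 at 22.1 RPKM and Thy1 at 3.43 RPKM. Col1a2 stood at 0.902 RPKM in ESC, Pdgfra at 0.206 RPKM, Postn at 0.119 RPKM and Tcf21 at 0.0209 RPKM, and Lum was listed at 0. By the 2-fold limit, 1 of the 11, Col1a1, was lower in MES than in ESC and 4 were higher, against 11.2% lower and 11.1% higher over all genes. The part of fibroblasts in the ESC values was not tested.

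Among the regulators, the myocardin gene Myocd was far higher from CP on, at 0.0617 RPKM in ESC, 0.313 RPKM in MES, 41.4 RPKM in CP and 33.3 RPKM in CM. Srf stood at 33.4, 45.3, 78.4 and 42.6 RPKM over these stages, so that it was well above 1 RPKM in ESC and MES too. Of 16 SRF and myocardin family regulators with values, 5 were at least 2-fold higher in CP than in MES and 0 lower (median 0.76). The shares over all genes were 8.91% higher and 3.91% lower. In MES against ESC, 4 regulators were higher and 2 lower (median 0.32), against 11.1% and 11.2% over all genes. In CM against CP, 0 were higher and 1 lower (median -0.21), against 11.3% and 12.8%. In CM against ESC, 7 were higher and 2 lower (median 0.88), against 22.2% and 23.4%. The contractile genes followed here had medians of -1.09, 1.12 and 1.23 in these comparisons. Their sign was thus opposite to that of the regulators in MES against ESC and in CM against CP. Csrp2, a LIM protein that works with SRF, was at 286 RPKM in CP and 67.0 RPKM in MES. Klf4 and Klf5, Kruppel-like factors that act on smooth muscle genes, were at 41.7 and 80.9 RPKM in ESC and at 7.75 and 3.01 RPKM in MES.

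Genes of light chain phosphorylation and of RhoA signalling were counted in the same way. Of these 24 genes, 0 were higher by 2-fold or more and 1 was lower in MES than in ESC, 4 were higher and 0 lower in CP than in MES, and 1 was higher and 4 lower in CM than in CP. In CM against ESC, 7 were higher and 4 lower, against 22.2% higher and 23.4% lower over all genes. For the other comparisons, the shares over all genes were 11.1% higher and 11.2% lower in MES against ESC. They were 8.91% higher and 3.91% lower in CP against MES, and 11.3% higher and 12.8% lower in CM against CP. Rhoa itself stayed between 56.9 and 70.1 RPKM. Prkg1, the cGMP-dependent kinase that relaxes smooth muscle, was at 8.64 RPKM in CP and 0.458 RPKM in MES. Ppp1r12b, a targeting subunit of myosin phosphatase, was at 8.34 RPKM in CM and 1.30 RPKM in CP. Of the kinase family, Mylk3, the cardiac myosin light chain kinase, stood at 0.0279 RPKM in ESC, 0.0226 RPKM in MES, 13.7 RPKM in CP and 71.0 RPKM in CM. Mylk2 and Mylk4 were not analysed here.

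Likeness between genes was measured as the root mean square difference of log2(RPKM + 1) over the 4 stages after each gene was centred on its own mean, so that 0 is an identical course on that scale. The pseudocount of 1 flattens the course of genes near or below 1 RPKM, which can then lie close to a gene whose RPKM ratios are smaller. Among the 6 genes the closest pair was Smtn and Cald1, at 0.33, and the farthest was Myl9 and Cald1, at 2.58. The genes of the table most like Tagln were Acta1, the actin of skeletal muscle, at 0.67, Atp1b1, a sodium pump subunit, at 0.79, and Col1a1 at 0.85. Acta1 stood at 25.4 RPKM in ESC, 0.525 RPKM in MES, 24.4 RPKM in CP and 259 RPKM in CM. Most like Myl9 were the small heat shock protein genes Hspb2 and Cryab, at 0.47 each, and clusterin (Clu), at 0.72. Most like Cnn1 were Apobec2 at 0.09, Gm2a at 0.22 and the integrin gene Itgb3 at 0.24. Most like Cnn2 were Sh2d3c at 0.10, Efcab4a at 0.12 and Vsig2 at 0.12, all of which were at 7.08 RPKM or less. Nearest to Smtn on this scale were Tubb1 at 0.02, Ppp1r16b at 0.03 and Cd151 at 0.03. Of these, Tubb1 was at 1.08 RPKM in CP, against 0.0248 RPKM in MES, and Ppp1r16b at 1.61 RPKM in CP and 0.341 RPKM in MES, so their RPKM ratios were far larger than the 2.02 of Smtn. Cd151 was at 70.0 RPKM in CP, against 33.6 RPKM in MES. Most like Cald1 were Ubl4, Ssh1 and Copb1 at 0.02, 0.02 and 0.03. Each likeness rests on 4 values per gene and describes these stages only.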

How the data were processed

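Poly(A) RNA from 8 libraries was aligned with Novoalign 2.07.00 to build mm9, per the submitters' processing notes. The deposited values are RPKM, per the file headers, with 1 column per stage. How each stage's 2 libraries were merged, and with which counter and annotation, is not given in the sources used here. Every gene of the table exceeds 1 RPKM in at least 1 stage (lowest maximum 1.00017).

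Stage values were compared as log2 differences with a pseudocount of 1 RPKM, and 2-fold was the limit for a count. The table has no replicate columns, so limma, planned for that case only, was not used. Relative depths were set where ratios of low values became ratios of small whole numbers. Their absolute size was set with GENCODE M21 gene lengths (GRCm38, no coordinates used): of 3822 genes with recovered reads, 933 gave the same depth. Reads were the smallest whole numbers with a whole gene model length, and the steps were checked on simulated data. They were recovered for 132 of 134 listed genes. The model length found with them was the joined exon length of M21 for 32 of these, and for 2 of the 6 main genes. For the other genes the read numbers have no such check. On a 2 kb model, 3 reads equal 0.0169 to 0.0242 RPKM. Reads were counted per gene model, so PCR copies and forms of a gene are not separated.

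The genes and lists were chosen with earlier results of these data known. Of each list, named genes are those with the largest differences or the highest mean, and all paralogs. For each of the 6 genes, the 3 most alike genes are named, leaving out clone and model names. The remaining smooth muscle and pericyte markers, Rhoa and the matrix genes beside the ESC values were named after their values were seen. Python 3.11.15, NumPy 2.4.6, pandas 2.3.3, SciPy 1.17.1 and matplotlib 3.10.9 were used. Alternatives were other pseudocounts, a 4-fold minimum, 3 scalings and a 3 RPKM filter.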

Additional observations from a re-analysis of the deposited data

How the results depend on the processing

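No paired analysis was possible because the table has no replicate columns, and leaving out a replicate was not run for the same reason. Over 24 differences of the 6 genes and 6 alternatives (144 values), none that reached 2-fold changed sign. Only the 3 scalings could have changed one. The 3 RPKM filter leaves these differences as they were, and another pseudocount cannot turn a sign. Smtn between MES and ESC was 0.04, but -0.09 with size factors and -0.05 with quantile normalization, and Cald1 was 0.07, but -0.06 with size factors. Counts of the 6 genes stayed within 1.5 times, with 5 in place of 4 higher in CP than in MES where Smtn passed. The median for MES minus ESC was -1.24 with a pseudocount of 0.1 and -1.20 with size factors. For CP minus MES it was 2.63 with 0.1, 2.52 with 0.5 and 2.66 with one sum. For CM minus CP it was 1.03 with one sum, 1.27 with size factors and 1.18 with quantile normalization, and for CM minus ESC 1.26 with one sum and 1.29 with size factors. The median of all genes in CM minus CP was -0.15, against -0.29 with one sum and -0.04 with size factors, and the 6 genes lay 1.26, 1.32 and 1.31 above it.

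Without Cnn3, Cnn1 made up 9.73% of the family in ESC, 5.77% of it in MES, 12.0% in CP and then 36.9% in CM. Without Tagln3, Tagln made up 75.5% in ESC and 51.8% in CP. A 4-fold minimum left 376 genes of the table higher and 470 lower in MES minus ESC, 371 and 118 in CP minus MES, 437 and 320 in CM minus CP, and 1182 and 1050 in CM minus ESC. With a pseudocount of 0.1, 2273 were higher in MES than in ESC, 1889 higher and 942 lower in CP than in MES, and 2686 lower in CM than in CP. With one sum, 1818 were higher in CP than in MES and 2799 lower in CM than in CP.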

Other observations

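Of the 7 pericyte markers with values, 4 were at least 2-fold higher and 1 lower in CM than in CP, against 11.3% higher and 12.8% lower over all genes. Ndufa4l2 stood at 7.62 RPKM in ESC, 6.92 RPKM in MES, 11.7 RPKM in CP and 232 RPKM in CM, and Cspg4, which encodes the proteoglycan NG2, at 0.238, 0.102, 0.293 and 23.8 RPKM. Rgs5, a regulator of G protein signalling found in pericytes, had the opposite order between the last 2 stages, at 2.78 RPKM in CM and 25.3 RPKM in CP. Calml4, a calmodulin-like gene, stood at 9.62 RPKM in ESC and at 0.0937, 0.0359 and 0.0918 RPKM in MES, CP and CM. Smtnl1, a smoothelin-like gene, peaked at 4.85 RPKM in CP, with 2 recovered reads in MES and 4 in CM. No value there has a replicate check.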
